A study of Mus musculus with 24 samples.

Results

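The comparison of cuff with sham mice 2 weeks after surgery comprised 12 of the 24 arrays of the study, chosen by their source labels and not by any measured value. Cuff mice carried a cuff around the sciatic nerve, an operation used in rodents to produce lasting neuropathic pain, and sham mice had the control surgery without it. All were male C57BL/6J mice with no transgene or deleted gene in the labels, and their age is not given in the sources used here. Each group held 6 biological replicates, with 1 array of anterior cingulate cortex RNA per mouse. The other 12 arrays, 6 of cuff and 6 of sham mice 8 weeks after surgery, entered the same fit and are quoted to show whether the 2-week difference was that of the later time.

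The anterior cingulate cortex lies on the medial wall of the frontal lobe and contributes to the unpleasantness of pain and to mood. The study's title places the comparison in the question of how neuropathic pain leads to depression-like states. Immediate early genes are transcribed within minutes of strong synaptic input, through second messengers, MAP kinases and the transcription factors CREB and SRF, and need no new protein synthesis. Many encode transcription factors (the FOS, JUN and EGR families), and others encode synaptic proteins such as Arc or brakes on the signal itself. One such brake is Dusp1, also called MKP-1, a phosphatase that inactivates MAP kinases.

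At 2 weeks, 2 of 20658 kept probes differed between cuff and sham mice (limma adjusted p under 0.05). Both were higher in cuff and belong to early-response genes. Egr2, a zinc-finger transcription factor of the EGR family, rose 3.37-fold. Csrnp1, a nuclear protein with a cysteine- and serine-rich region that is induced by AXIN and by stress signals, rose 1.86-fold. Dusp1, Arc, Junb, Fos and Egr4 had differences of 1.72- to 2.27-fold but missed the threshold. All cuff arrays lay above all sham arrays for these genes, as they did for 0.116% of all kept probes. Markers of myelin had a median difference of -0.39 at 2 weeks and 0.36 at 8 weeks, with wide spread between mice and no probe past the threshold.

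Promoter sequences are shown for 4 of the genes whose transcripts were higher on every cuff array than on any sham array. Each window of 300 bases spans a RefSeq gene start (GRCm38.p6), 5′ to 3′ on the gene's strand. Where RefSeq lists several starts, 5 for Egr2 and 4 for Csrnp1, the window with the most matches was taken, so the shares of single windows given below are no measure of chance for these. The other Egr2 windows held 0 to 3 matches and the other Csrnp1 windows 1 or 2, with no AP-1 site. Capitals mark matches on either strand to the cAMP response element that CREB binds (TGACGTCA), its core (TGACG), the AP-1 site that FOS and JUN bind (TGANTCA) and the CArG box that SRF binds. The windows are chr10:67537619-67537918 (Egr2, plus strand), chr9:119982974-119983273 (Csrnp1, minus strand), chr17:26508423-26508722 (Dusp1, minus strand) and chr12:85473640-85473939 (Fos, plus strand).
Egr2: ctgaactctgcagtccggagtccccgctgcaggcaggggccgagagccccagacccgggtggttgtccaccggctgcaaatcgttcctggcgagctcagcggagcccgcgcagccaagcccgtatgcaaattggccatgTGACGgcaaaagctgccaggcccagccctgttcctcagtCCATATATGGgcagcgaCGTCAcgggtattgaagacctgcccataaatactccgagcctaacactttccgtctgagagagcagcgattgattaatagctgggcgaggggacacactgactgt
Csrnp1: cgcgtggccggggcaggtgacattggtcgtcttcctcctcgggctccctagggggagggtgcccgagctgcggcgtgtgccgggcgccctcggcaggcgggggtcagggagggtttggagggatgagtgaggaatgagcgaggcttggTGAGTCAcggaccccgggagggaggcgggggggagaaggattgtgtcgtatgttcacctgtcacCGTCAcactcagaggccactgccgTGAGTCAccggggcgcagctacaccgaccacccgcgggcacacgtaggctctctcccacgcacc
Dusp1: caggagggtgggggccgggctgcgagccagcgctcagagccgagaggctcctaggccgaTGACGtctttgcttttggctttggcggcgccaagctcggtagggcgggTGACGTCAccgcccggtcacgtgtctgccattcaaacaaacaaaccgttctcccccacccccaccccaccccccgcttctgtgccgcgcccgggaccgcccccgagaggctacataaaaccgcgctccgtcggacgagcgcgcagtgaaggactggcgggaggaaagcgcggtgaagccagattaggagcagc
Fos: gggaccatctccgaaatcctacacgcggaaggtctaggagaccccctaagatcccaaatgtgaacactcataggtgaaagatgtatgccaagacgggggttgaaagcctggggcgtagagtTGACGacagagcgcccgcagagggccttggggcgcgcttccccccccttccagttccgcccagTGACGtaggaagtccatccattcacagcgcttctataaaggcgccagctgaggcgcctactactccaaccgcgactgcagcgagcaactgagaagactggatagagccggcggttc
The Egr2 window held 1 CArG box and 2 cores. The Csrnp1 window held 2 AP-1 sites and 1 core. In the Dusp1 window there was 1 full cAMP response element, and of its 3 cores 2 lie inside that element on opposite strands. The Fos window held 2 cores. The windows of Junb and Egr4, not printed, held 1 and 2 cores. Of all 32851 windows of this length, 1.79% held the full element, 20.8% a core, 7.81% an AP-1 site and 1.63% a CArG box. The immediate early gene list used below, which leaves out Dusp1 and Csrnp1, had 16 windows of 11 genes. Of these, 0 held the full element, 11 a core, 0 an AP-1 site and 4, all of Egr2, a CArG box. The Egr2 windows that begin at 67537619, 67537620 and 67537680 overlap and hold the same CArG box and the same 2 cores. The windows are therefore not separate observations, and their counts are not comparable with the shares of all windows. These matches describe letters in a window and not binding.

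The 2-week arrays were alike in depth of detection. Between 20330 and 21274 probes had a detection p under 0.05 on the cuff arrays, and between 20067 and 21715 on the sham arrays, out of 45281. The mean difference of -138.3 probes was within the spread (two-sided exact permutation test over 924 relabellings, p = 0.641, 0.981 after Benjamini-Hochberg adjustment over 2 tests). Median raw signal was 89.41 ± 6.68 in cuff mice and 89.62 ± 11.1 units in sham mice (SD, n = 6 each). Any pair of arrays correlated at 0.974 to 0.993 over the kept probes. The tissue label held against its markers: the cortical excitatory genes Slc17a7, Camk2a, Neurod2, Tbr1 and Fezf2 were detected on all 12 arrays, and the striatal markers Drd2 and Adora2a were not among the genes with a kept probe. One sham array, replicate 3, stood apart in meningeal markers, with a mean log2 signal of 9.04 over 7 of them against 7.38 to 8.06 in cuff and 6.91 to 7.64 on the other sham arrays. Sham replicate 2 stood apart in striatal markers, with a mean log2 signal of 9.07 over 7 of them against 8.40 to 8.58 in cuff and 8.21 to 8.53 on the other sham arrays.

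Values below are log2 probe intensities after background correction and quantile normalization, and differences are cuff minus sham with their standard error (SE). A call is a two-sided limma p under 0.05 after Benjamini-Hochberg adjustment over all 20658 probes. By this rule 0.00968% of probes were higher in cuff and 0.0% lower. At an unadjusted limma p under 0.05 there were 511 higher probes (2.47%) and 497 lower (2.41%), 1008 in all (4.88%). At an unadjusted p under 0.001 the split was 29 higher against 8 lower. The median difference over all kept probes was 0.0009, and 50.3% of differences were above 0. The differences ran from -1.02 to 1.75, and 73 probes exceeded 0.5 in size. In the plot of all kept probes, Egr2 and Csrnp1 stand apart at the upper right. Because whole tissue was measured, fewer cells of a type and less RNA per cell cannot be told apart for any of these genes.

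**Figure D1:**
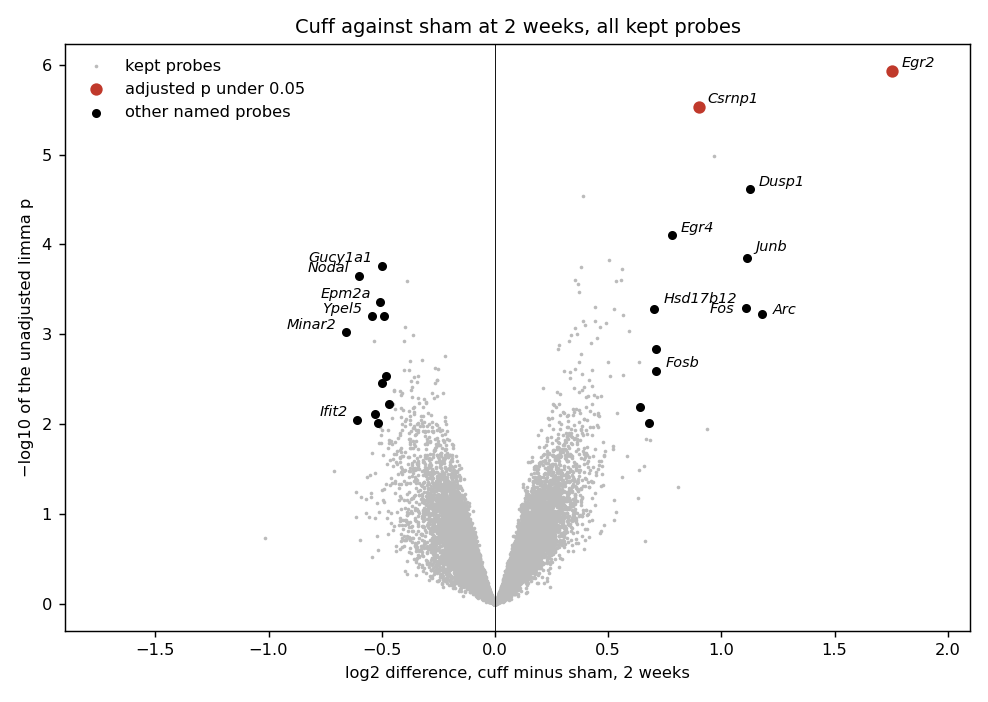
Each grey point is 1 of 20658 kept probes, with the log2 difference between cuff and sham mice at 2 weeks on the horizontal axis and −log10 of the unadjusted limma p on the vertical axis. The red points, Egr2 (difference 1.75) and Csrnp1 (0.90), have an adjusted p under 0.05, and black points are the other named probes.

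Egr2 signal ran from 9.78 through a median of 10.17 to 10.44 in cuff, against 7.83 through 8.37 to 9.14 in sham. No cuff array overlapped a sham array, and the sham mice were the more variable group. The means were 10.14 ± 0.21 in cuff mice and 8.39 ± 0.54 in sham mice (SD, n = 6 each). The difference was 1.75 ± 0.28 (SE), with a 95% interval of 1.19 to 2.32 and a limma adjusted p of 0.0241. Csrnp1 signal ran from 9.45 through 9.70 to 10.10 in cuff, against 8.60 through 8.78 to 9.19 in sham, again without overlap. Its means were 9.74 ± 0.28 in cuff mice and 8.84 ± 0.23 in sham mice (SD, n = 6 each). This gave a difference of 0.90 ± 0.15 (SE), with a 95% interval of 0.59 to 1.21 and a limma adjusted p of 0.0303. Leaving out 1 array ended both calls for cuff replicates 2, 4, 5 and 6 and sham replicates 1, 2 and 5, with adjusted p between 0.0626 and 0.131 for Egr2 and between 0.0626 and 0.154 for Csrnp1. Without sham replicate 4 the adjusted p was 0.0487 for Egr2 and 0.0952 for Csrnp1. Over all of the omissions the differences stayed between 1.64 and 1.91 for Egr2 and between 0.83 and 0.97 for Csrnp1. Without sham replicate 3, the array with high meningeal markers, Egr2 differed by 1.83 and Csrnp1 by 0.97. Without sham replicate 2, the array with high striatal markers, the differences were 1.65 and 0.85.

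Both calls were lost when undetected probes were kept (limma adjusted p = 0.0872 for Egr2 and Csrnp1) and when arrays were weighted by quality (0.102 for Egr2 and Csrnp1). Csrnp1 also missed the threshold after median scaling (0.156) and when the 12 arrays were fitted alone (0.102), where Egr2 had 0.01 and 0.00725.

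The other FOS, JUN and EGR family members shared the direction of Egr2 with smaller differences. Fos, the partner of JUN proteins in the AP-1 factor, ran from 10.75 through 11.06 to 11.23 in cuff, against 9.25 through 9.92 to 10.66 in sham. Its difference was 1.11 ± 0.28 (SE), with a limma adjusted p of 0.465. Junb, a JUN family partner of FOS, ran from 10.00 through 10.43 to 10.78 in cuff, against 8.59 through 9.45 to 9.85 in sham. The groups of both genes were separate, by a narrow margin between the lowest cuff and the highest sham array. Junb differed by 1.11 ± 0.25 (SE), with a limma adjusted p of 0.329. Egr4, a further EGR factor, ran from 11.33 through 11.77 to 11.88 in cuff, against 10.34 through 10.90 to 11.26 in sham, and differed by 0.78 ± 0.17 (SE; limma adjusted p = 0.274). Fosb, whose truncated splice form accumulates with repeated stimulation, ran from 8.13 through 8.51 to 9.11 in cuff and from 7.07 through 7.93 to 8.25 in sham. Here 4 cuff arrays lay above all sham arrays and the groups overlapped, with a difference of 0.71 ± 0.21 (SE; limma adjusted p = 0.848).

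Egr1 and Egr3 were bright and differed less. Egr3 had 13.22 ± 0.18 in cuff and 12.94 ± 0.10 in sham, and Egr1 had 14.17 ± 0.15 in cuff mice and 13.96 ± 0.11 in sham mice (SD, n = 6 each). Their differences of 0.28 ± 0.10 and 0.22 ± 0.09 (SE) had unadjusted limma p of 0.0094 and 0.018. Fosl2, a FOS relative with slower kinetics, differed by 0.32 ± 0.12 (SE), at an unadjusted limma p of 0.0106. Adjusted p was 0.924 for all of these. Jun differed by 0.28 ± 0.15 (SE), at an unadjusted limma p of 0.078.

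Among immediate early genes that act at synapses, Arc, which drives removal of AMPA receptors from the membrane, had the largest difference. Arc signal ran from 11.71 through 11.81 to 11.97 in cuff, against 9.75 through 10.63 to 11.63 in sham. Cuff mice were tightly grouped (SD 0.09) while sham mice were spread out (SD 0.82), and no array overlapped. The difference of 1.18 ± 0.30 (SE) had an unadjusted limma p of 0.000591 and an adjusted p of 0.483. Npas4, a neuron-specific factor induced by calcium entry, showed the same unequal spread, from 9.70 through 9.86 to 10.14 in cuff and from 7.92 through 9.28 to 10.08 in sham. Its 3 highest sham arrays, replicates 3, 4 and 6, lay inside the cuff range, and the difference of 0.81 ± 0.39 (SE) had an unadjusted limma p of 0.0502. Homer1, a postsynaptic scaffold with an activity-induced short form, differed by 0.01 ± 0.09 (SE) by its brightest probe. Its dimmer probes were at -0.004 and 0.24, so that its probes disagreed. Nptx2, a secreted pentraxin that gathers AMPA receptors, differed by 0.16 ± 0.23 (SE).

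**Figure D2:**
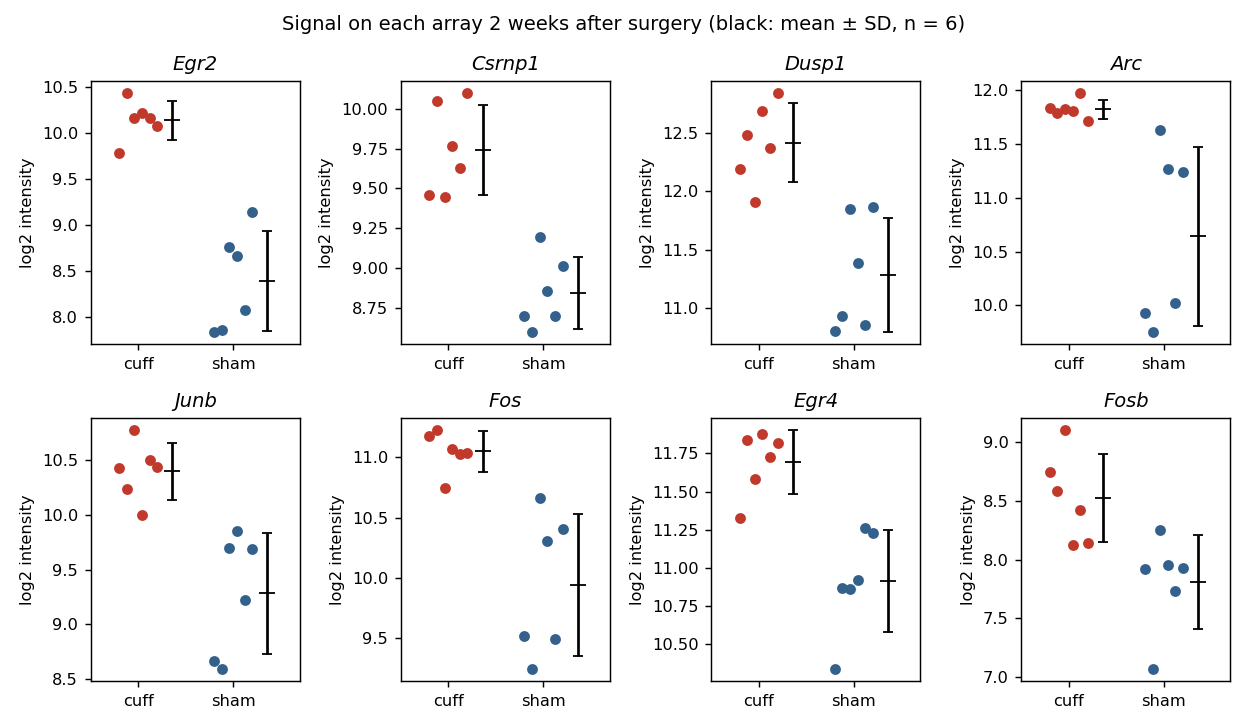
Log2 intensity of 8 probes on each of the 6 cuff (red) and 6 sham (blue) arrays at 2 weeks, with the mean and SD in black and a separate vertical scale for each gene. In all panels but that of Fosb, the lowest cuff array lies above the highest sham array.

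As a list, immediate early genes had a median difference of 0.30, beside 0.0009 over all kept probes. Of 22 listed genes 16 passed the detection filter, and Nr4a1, Nr4a3, Ier2, Ier5, Btg2 and Maff did not. Of the 16, 1 passed the threshold (Egr2), 9 had an unadjusted p under 0.05 and were higher in cuff, where 2.47% of all probes were, and 0 were lower. All 16 differences were above 0 by the brightest probe of each gene, though that of Homer1 was 0.01 and another of its probes was below 0. The filter was applied to both groups together, so these counts concern the detected genes and not the whole list. The mean of the 16 genes on each array ran from 9.82 to 9.92 in cuff and from 8.87 to 9.57 in sham. Within sham, replicates 3, 4 and 6 (9.57, 9.51 and 9.50) lay above replicates 1, 2 and 5 (9.04, 8.87 and 9.10). Sham replicate 2 was the lowest of the 12 arrays in 9 of the 16 genes and sham replicate 1 in 5. The part of the striatal markers of sham replicate 2 in these values was not tested, and with 1 array left out the list median stayed between 0.28 and 0.39.

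**Figure D3:**
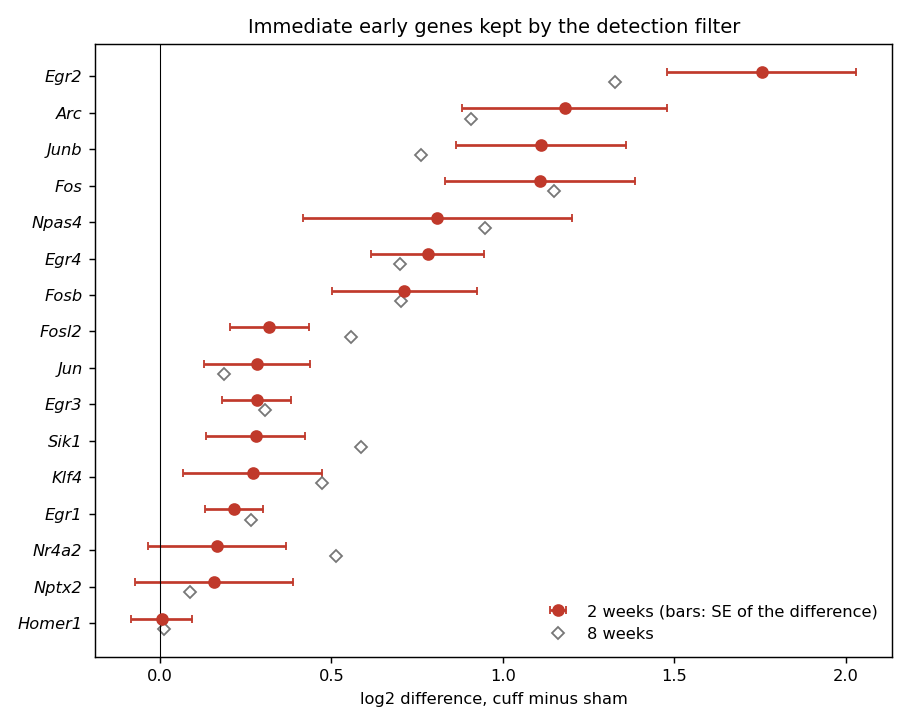
Log2 difference between cuff and sham mice for the 16 detected immediate early genes, with red points for 2 weeks (bars: SE) and open diamonds for 8 weeks. All 2-week points lie above 0, from 0.01 for Homer1 to 1.75 for Egr2, and the 8-week points lie on the same side.

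At 8 weeks the differences of all 16 detected immediate early genes were above 0 as well. Cuff minus sham was 1.75 at 2 weeks and 1.33 at 8 weeks for Egr2, and the effects at the 2 times had an unadjusted limma p of 0.284 for their difference. For Csrnp1 the values were 0.90 at 2 weeks and 0.57 at 8 weeks (unadjusted limma p of the difference 0.136), and for Fos 1.11 and 1.15 (0.918). Arc differed by 1.18 at 2 weeks and 0.91 at 8 weeks (0.528). The list median was 0.30 at 2 weeks and 0.57 at 8 weeks. Over all probes, 0 had a limma adjusted p under 0.05 for the 2-week effect minus the 8-week effect (0.0%), the smallest was 0.927, and 997 (4.83%) had an unadjusted p under 0.05. This does not show that the effects were equal at the 2 times.

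MAP kinase phosphatases and feedback inhibitors of the same pathway showed a mixed picture led by Dusp1. Dusp1 ran from 11.91 through 12.43 to 12.84 in cuff, against 10.81 through 11.16 to 11.87 in sham, so that the lowest cuff array lay just above the highest sham array. The means of 12.41 ± 0.34 in cuff mice and 11.29 ± 0.49 in sham mice (SD, n = 6 each) are a 2.18-fold difference. On the log2 scale this was 1.13 ± 0.22 (SE), with a 95% interval of 0.68 to 1.58 and a limma adjusted p of 0.12. Without sham replicate 3 or 6 the limma adjusted p of Dusp1 was 0.0341 and 0.0389. With any other single array left out it missed the threshold, at 0.0645 to 0.391. Dusp6, a cytoplasmic phosphatase of ERK, had 11.97 ± 0.13 in cuff mice and 11.65 ± 0.12 in sham mice by its brightest probe (SD, n = 6 each). That is a difference of 0.33 ± 0.09 (SE; limma adjusted p = 0.573), and its 2 dimmer probes differed by 0.19 and 0.68. Dusp5, a nuclear ERK phosphatase, differed by 0.30 ± 0.13 (SE; limma adjusted p = 0.924). By their brightest probes the other 7 detected members lay between -0.27 for Dusp2 and 0.02, and the list median of 10 genes was -0.04. The dimmer probe of Dusp2 was at 0.07, and the probes of Dusp8 were at -0.04 and 0.03. Dusp10 was at -0.18 by its brighter probe and at -0.34 by its dimmer one (unadjusted limma p of 0.0275). In the MAP kinase cascade, 14 of 25 listed genes had a kept probe, with a median of 0.03. Spry4, a feedback inhibitor of receptor tyrosine kinase signalling, had 6.33 ± 0.15 in cuff mice and 5.89 ± 0.18 in sham mice without overlap (SD, n = 6 each). Its difference of 0.44 ± 0.11 (SE) had a limma adjusted p of 0.508, and at 8 weeks it was -0.04 (unadjusted limma p of the difference between times 0.00593). Spry4 too was named for its 2-week p, so these values are a description, and no probe had a limma adjusted p under 0.927 for that difference. The other 13 genes, from the Sprouty-related inhibitor Spred1 at -0.12 to the kinase Rps6ka5 at 0.13, had no unadjusted p under 0.05.

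Several stress- and activity-linked genes had positive differences that missed the threshold. Gadd45g and Gadd45b, growth-arrest and DNA-damage response genes that neuronal activity also induces, were part of the axon injury and regeneration list. Gadd45g had 11.37 ± 0.27 in cuff mice and 10.82 ± 0.15 in sham mice (SD, n = 6 each). It differed by 0.56 ± 0.13 (SE; limma adjusted p = 0.329), and its dimmer probe by 0.59. Gadd45b signal ran from 7.66 to 8.02 in cuff and from 6.78 to 7.59 in sham, without overlap, a difference of 0.51 ± 0.15 (SE; limma adjusted p = 0.885). Of the 14 detected genes of that list, 3 had an unadjusted p under 0.05 and all 3 were higher in cuff, where 2.47% of all probes were, the third being Sox11, a developmental transcription factor re-expressed after nerve injury, at 0.18. The list median was 0.07. Among 15 detected glucocorticoid-induced genes (median -0.02), Per1, a clock gene with a CRE and a glucocorticoid response element, differed by 0.44 ± 0.15 (SE; limma adjusted p = 0.924). Cdkn1a, the cell-cycle inhibitor p21, differed by 0.39 ± 0.12 (SE; limma adjusted p = 0.924). The glucocorticoid targets Tsc22d3, by its brightest probe, and Fkbp5 were at -0.20 and -0.12. The dimmer probes of Tsc22d3 were at 0.15 and 0.26, so that its probes disagreed. Apart from Per1, which is counted in the glucocorticoid list (unadjusted limma p of 0.00769), circadian genes had 0 of 15 with an unadjusted p under 0.05 (median -0.04), led by Nr1d1 at -0.37 ± 0.24 (SE) and Rora at -0.19 ± 0.13 (SE).

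Across all kept probes, 24 had every cuff array above every sham array (0.116%) and 11 every cuff array below (0.0532%). Such separation was not tested and is given as a description beside the fit, not as a call. The 24 comprised Egr2, Csrnp1, Dusp1, Arc, Junb, Fos, Egr4, Gadd45b and Spry4, already described. They also held the brightest of the 3 probes of Grasp, a scaffold for metabotropic glutamate receptors, at 0.38 ± 0.09 (SE). The other members, some without a symbol, differed by 0.21 (Rassf1) to 0.56 (4933439C10Rik). Among the 11 below were B2m, the light chain of MHC class I, at -0.22, and Ptprz1, a receptor phosphatase of glial precursors, at -0.40. The 4 names 4933439C10Rik, Rassf1, B2m and Ptprz1 lie outside the naming rule and were chosen after their values were seen.

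An unadjusted p under 0.01 was found for 180 probes (0.871%). Among the 12 largest positive differences of probes with 1 symbol at that level, 4 came from dim probes of genes with more than 1 probe. The dimmest Grasp probe differed by 0.71 ± 0.20 (SE), from 5.68 through 6.01 to 6.56 in cuff and from 5.14 through 5.16 to 5.70 in sham, and its middle probe by 0.45. All 3 probes of Grasp were higher in cuff, and without background correction the dimmest differed by 0.29. Hsd17b12, a steroid and fatty-acid elongation enzyme, differed by 0.70 by its dim probe and by -0.09 by its bright one, so that its probes disagreed. Bdnf, the neurotrophin that CREB induces, had 4 probes, all higher in cuff, by 0.64, 0.57, 0.33 and, for the brightest, 0.21. The probe at 0.64 had 6.32 ± 0.31 in cuff mice and 5.67 ± 0.52 in sham mice (SD, n = 6 each), with a limma adjusted p of 0.924. Bdnf by that probe differed by -0.03 at 8 weeks.

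Among probes with 1 symbol at that level, the 12 largest negative differences ran from -0.66 to -0.47, and all missed the threshold. Several rest on a dim probe that other probes of the gene did not match, or on a probe near background in cuff. Minar2, a membrane protein linked to hearing in mice and humans, ran from 4.85 through 5.23 to 5.59 in cuff and from 5.32 through 5.83 to 6.29 in sham. It differed by -0.66 ± 0.18 (SE; limma adjusted p = 0.538) and was detected on 4 cuff and 6 sham arrays, while its brighter probe was at 0.15. Nodal, a TGF-beta family ligand of early development, was detected on 2 cuff and 6 sham arrays. It was kept through the sham group, so its log2 difference of -0.60 is given as a description. Ifit2, an interferon-induced RNA-binding protein, differed by -0.61 ± 0.21 (SE; limma adjusted p = 0.924), with 1 sham array, replicate 3, at 8.34 and the rest of both groups below it. Without that array its difference was -0.36, and its other probe was at -0.44 with all arrays. A probe of Ypel5 differed by -0.55 and one of Gucy1a1, a subunit of the nitric oxide receptor, by -0.50. The brighter probes of Ypel5 were at 0.04 and 0.05, and the other 3 of Gucy1a1 between 0.07 and 0.20, so that neither gene was lower by all its probes. Epm2a, the laforin phosphatase of glycogen, differed by -0.51 ± 0.12 (SE; limma adjusted p = 0.465) by its brighter probe and by 0.13 by its dimmer one. Acan, the aggrecan core of perineuronal nets (-0.49), and Trib3, a stress-induced pseudokinase (-0.53), were each detected on 1 cuff and 5 sham arrays, and their differences too are descriptions. Lrba, a vesicle-trafficking protein, was at -0.50 by a probe detected on 3 cuff and 6 sham arrays, and at 0.13 by its brightest probe. Ndrg3 (-0.52, brighter probe -0.15), the dense-core vesicle protein Ptprn2 (-0.48, dimmer probe -0.07) and the glutamate carboxypeptidase Folh1 (-0.47) had limma adjusted p of 0.885 to 0.924. Without background correction the differences of dim probes were smaller, at -0.26 for Minar2, -0.22 for Nodal and -0.18 for Acan.

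Synaptic receptor genes were close to the background. Of 12 detected AMPA, NMDA and kainate receptor subunits (median 0.05), Grik4, a kainate subunit, had an unadjusted p under 0.05, at 0.27 ± 0.11 (SE). Grin3a, an NMDA subunit, was next at 0.14 ± 0.08 (SE). None of 10 metabotropic receptors and glutamate transporters (median 0.04) did, with Slc17a6 at -0.38 ± 0.28 (SE) and Slc1a2 at 0.11 ± 0.09 (SE). Postsynaptic density genes had 0 of 14 (median 0.03), with Dlg4, which encodes PSD-95, at 0.33 ± 0.18 (SE) and Shank1 at 0.28 ± 0.15 (SE). Of 12 genes of GABA receptors, synthesis and transport (median 0.09), Gabrb2 was at 0.31 ± 0.15 (SE), at an unadjusted limma p of 0.0485, and Gabra3 at 0.32 ± 0.16 (SE). Neither the 11 neurotrophin and CREB genes by their brightest probes (median 0.02; Crem 0.16, Creb1 -0.20) nor the 8 monoamine receptors (median 0.03; Adra1b -0.26, Htr1a 0.24) held one with an unadjusted p under 0.05. The dimmer probes of Crem were at 0.005, -0.16 and -0.03, and those of Slc1a2 at -0.01 and 0.08. Every adjusted p in these lists was at least 0.924.

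Peptides, channels and inflammatory genes gave a few values with an unadjusted p under 0.05 and no call. Adcyap1, the peptide PACAP, differed by 0.32 ± 0.14 (SE), with Tacr3, a tachykinin receptor, at 0.24 ± 0.14 (SE), in a list of 13 opioid and neuropeptide genes (median -0.01). Kcnk1, a background potassium channel, differed by -0.19 ± 0.08 (SE) and Kcnc2 by 0.24 ± 0.15 (SE) among 15 potassium and HCN channels (median 0.04). Of 24 listed cytokines and inflammatory mediators 11 had a kept probe (median -0.06). Il33, an alarmin made by astrocytes and oligodendrocytes, had 8.94 ± 0.42 in cuff mice and 9.39 ± 0.29 in sham mice (SD, n = 6 each). Its difference of -0.45 ± 0.20 (SE) at 2 weeks stood beside 0.43 at 8 weeks (unadjusted limma p of the difference between times 0.00371). Il33 was named for its 2-week p, so its values at the 2 times are a description. For the difference between times, no probe had a limma adjusted p under 0.927. The chemokine Cxcl12 differed by -0.23 ± 0.10 (SE) by its brightest probe at 2 weeks and by 0.19 at 8 weeks, while its dimmer probes were at -0.03 and 0.20 at 2 weeks. Nos1 was at 0.36 ± 0.17 (SE) by its brighter probe and at -0.01 by its dimmer one. Heat-shock and folding genes had 2 of 22 higher at an unadjusted p under 0.05, beside 2.47% of all probes (median 0.05), the chaperones Calr at 0.37 ± 0.16 (SE) and Dnajb1 at 0.18 ± 0.08 (SE). Oxidative phosphorylation genes lay in a narrow band, with 13 of 16 below 0, a median of -0.04 and no unadjusted p under 0.05 (Ndufa4 -0.13, Cycs -0.13). The dimmer probes of Cycs were at -0.13 and 0.12.

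**Figure D4:**
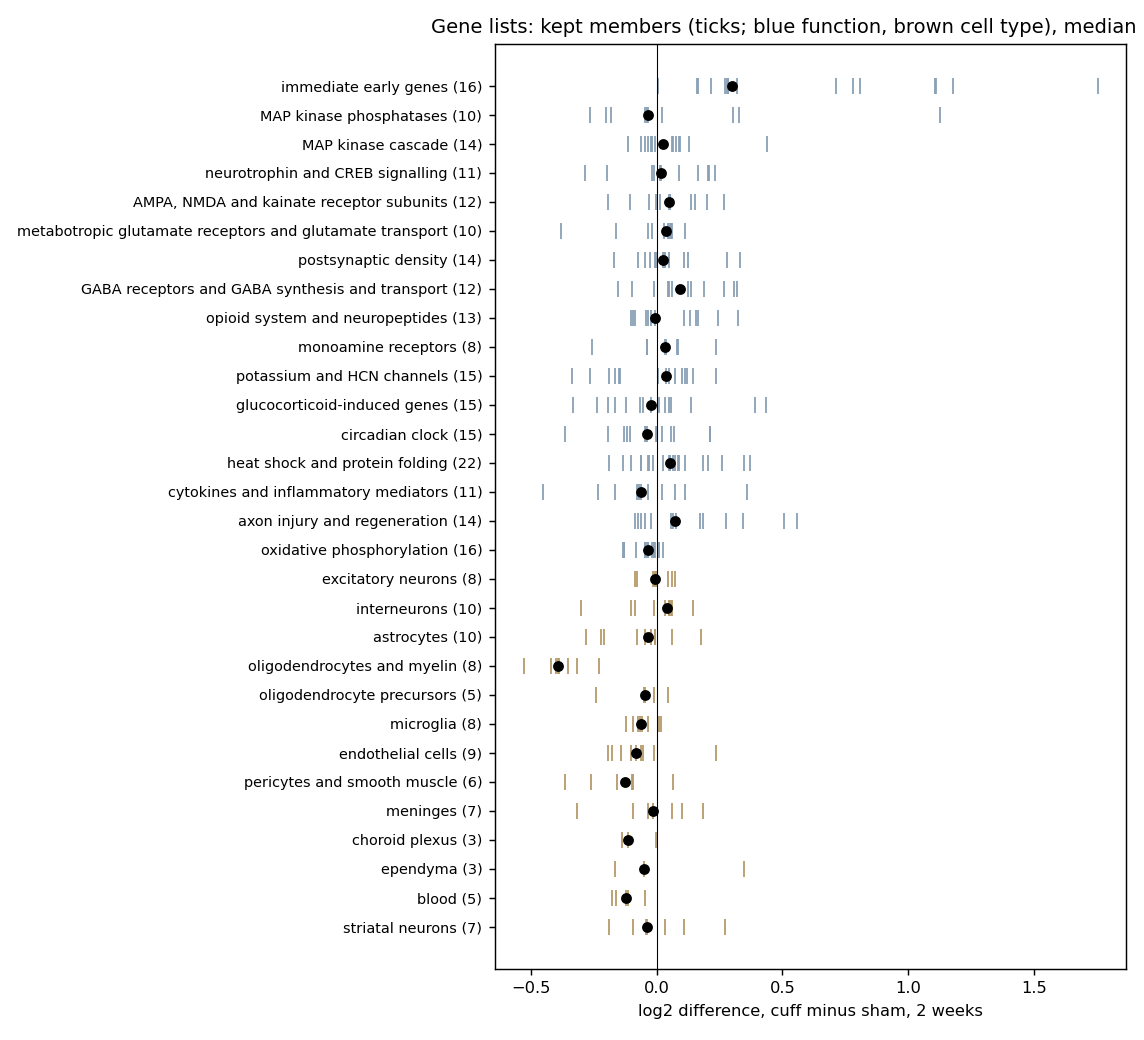
Log2 difference between cuff and sham mice at 2 weeks for each detected member of 30 gene lists (ticks) and the list median (dot), with the number of detected members in parentheses. Immediate early genes (median 0.30) and oligodendrocyte and myelin markers (median -0.39) lie farthest from the line, which is the median of all kept probes.

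Markers of cell types were compared to see how the tissue samples differed in make-up. All 8 detected markers of oligodendrocytes and myelin had means below those of sham, with a median of -0.39 that was -0.21 without cuff replicate 3 and -0.53 without cuff replicate 6, where 2.41% of all probes were lower at an unadjusted p under 0.05 and 1 of these 8 was. That gene, Cnp, a myelin enzyme, had 10.20 ± 0.42 in cuff mice and 10.73 ± 0.48 in sham mice (SD, n = 6 each), a difference of -0.53 ± 0.24 (SE; limma adjusted p = 0.924). Mbp, the myelin basic protein, differed by -0.39 ± 0.20 (SE), and Mal by -0.42 ± 0.25 (SE). The mean of the 8 markers ran from 10.56 through 11.31 to 12.06 in cuff and from 10.96 through 11.75 to 12.04 in sham, with full overlap. At 8 weeks the list median was 0.36, and the 2-week effect minus the 8-week effect had unadjusted limma p of 0.00896 for Mal, 0.0255 for Cnp and 0.0307 for Mbp, none past the threshold after adjustment. Their part in the differences of the immediate early genes was not tested.

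Neuronal markers were near 0, with medians of -0.01 for 8 excitatory genes and 0.04 for 10 interneuron genes. The largest in size among them was Pvalb, a marker of fast-spiking interneurons, at -0.30 ± 0.19 (SE). Medians were -0.04 for 10 astrocyte genes (Aqp4 -0.28, Fgfr3 0.18), -0.05 for 5 oligodendrocyte precursor genes (Sox10 -0.24, Gpr17 -0.05) and -0.06 for 8 microglial genes (Aif1 -0.12, Trem2 -0.10). They were -0.08 for 9 endothelial genes (Esam -0.18, Slco1a4 0.23), -0.13 for 6 pericyte and smooth muscle genes (Myh11 -0.37, Rgs5 -0.16) and -0.12 for 5 blood genes (Hba-a1 -0.16, Hbb-bt -0.12). Meningeal genes had a median of -0.02 (Lum -0.32, Igf2 0.18), 3 choroid plexus genes -0.11 (Kl -0.11, Ttr -0.14) and 7 striatal genes -0.04 (Pde10a -0.19, Rgs9 0.27). Of 3 ependymal genes (median -0.05), Foxj1, the regulator of motile cilia, was at 0.35 ± 0.12 (SE), at an unadjusted limma p of 0.00668, and Dynlrb2 at -0.17. No marker passed the threshold. The summed signal of the 8 excitatory markers ran from 22397 to 28243 units in cuff and from 24798 to 26522 units in sham.

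**Figure D5:**
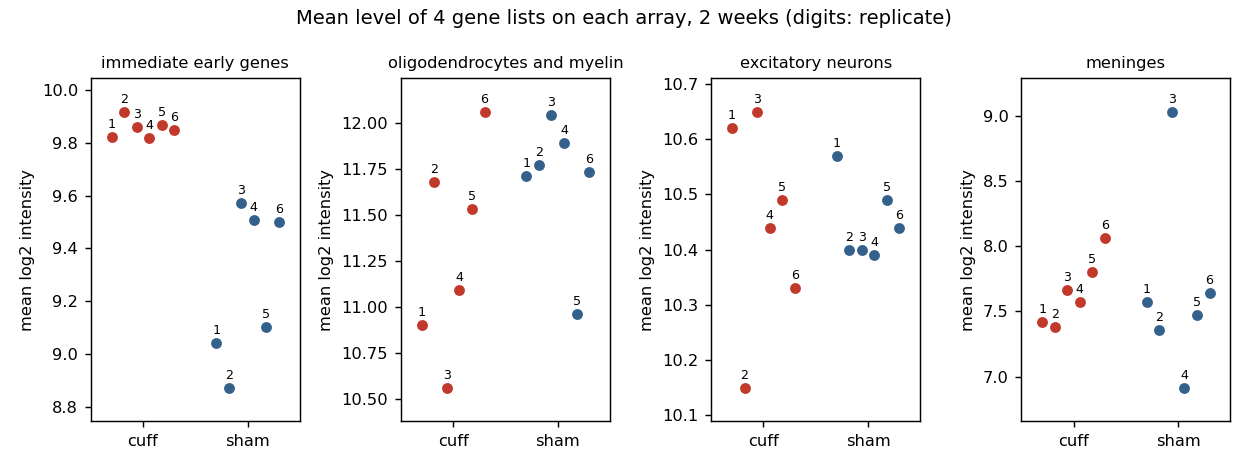
Mean log2 intensity of the detected genes of 4 lists on each 2-week array (red cuff, blue sham, digits give the replicate), with a separate vertical scale per panel. The immediate early gene means separate, from 9.82 up in cuff and from 9.57 down in sham, while the other 3 lists overlap and sham replicate 3 is high in meningeal genes (9.04).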

How the data were processed

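Total RNA of the anterior cingulate cortex (RNeasy Lipid Tissue kit, TotalPrep amplification, biotin) was hybridised to Illumina bead arrays, per the labels' protocols. The deposited table gives, per the file headers, an intensity and a detection p-value for 45281 probes on each of 24 arrays. Deposited intensities are on a linear scale without normalization, with a minimum of 9.89. The submitters' processing notes name GenomeStudio 2011.1 without settings.

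Intensities were corrected and quantile-normalized with neqc of limma 3.58.1 (R 4.3.3; offset 16, log2), which takes the background from the detection p. This offset shrinks the log2 differences of dim probes. The filter kept 20658 probes (45.62%) whose detection p was under 0.05 on 6 or more of the 12 2-week arrays. lmFit and eBayes were fitted to 24 arrays with 4 group means (20 residual degrees of freedom, prior 4.8), and p was adjusted by Benjamini-Hochberg. The number of arrays limits precision, and the median SE of a difference was 0.117. The fits were checked on simulated data.

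Platform annotation gave 1 symbol to 17524 kept probes, several to 8 and none to 3126. In lists, a gene is represented by its brightest kept probe. Named are probes past the threshold, the 12 largest differences each way among probes with 1 symbol and an unadjusted p under 0.01, Dusp1, Fos and Egr2, and in each list the 2 members with the smallest p, while further list members were named after their values were seen. The comparison, members and lists were chosen with earlier results of these data known. Replicate numbers follow sample order and were not used to pair arrays. At 2 weeks each replicate number joins a cuff and a sham mouse that are neighbours in mouse number. Alternatives changed background correction, normalization, offset, filter, arrays fitted, variance model, array weights, mouse number, source of values and each array in turn. Slide and scan batches were not analysed here.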

Additional observations from a re-analysis of the deposited data

Results flagged for a closer look

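In 56 groups of 6 arrays (named probes and array-level measures), 3 held an array far from the other 5 of its group, where chance gives 2.8. Folh1 was 5.219 on sham replicate 5, with the other sham arrays between 6.149 and 6.308. Ndrg3 was 5.776 on sham replicate 6, with the other sham arrays between 6.48 and 6.793. The probe ILMN_1230397, which has no symbol in the annotation, was 7.076 on cuff replicate 3, with the other cuff arrays between 7.508 and 7.727.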

How the results depend on the processing

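The count of 2 probes past the threshold was 2 without background correction, 1 after median scaling, 3 with an offset of 50, 0 without the detection filter, 1 with the 12 arrays fitted alone, 0 with array weights and 0 to 5 with 1 array left out (5 without sham replicate 3, 4 without sham replicate 6). The mouse numbers in the titles, taken as neighbouring pairs, gave correlations of -0.15 to 0.65 within the 6 pairs (3 over 0.1). The median was 0.16 within pairs and -0.0045 over the 30 other combinations. Of 6 cuff arrays 3 correlated best with their own neighbour, so the rule for pairing was not met. With the neighbouring pairs as a replicate block the count was 0, with a limma adjusted p of 0.177 for Egr2 and Csrnp1. It was 1 (Egr2, 0.0366) with the 12 arrays fitted alone. The count of 35 probes without overlap was 14 after median scaling, 81 without the filter and 47 to 99 with 1 array left out, where fewer arrays make separation easier. Egr2 kept a difference of 1.54 to 1.91 and Csrnp1 of 0.80 to 0.97 over 25 alternatives each. The difference in detected probes was 69.7 at a detection p under 0.01 and ran from -317.7 to 11.87 with 1 array left out. That in median raw signal was 0.0029 on the log2 scale and ran from -3.736 to 2.035. Over 607 comparisons of named probes 0 reversed, 24 lost the threshold and 8 gained it, while dim probes changed in size (Grasp 0.289 to 0.787, Minar2 -0.767 to -0.258). The 9 immediate early genes with an unadjusted p under 0.05 became 8 to 11, and the test between times gave 0 calls under all 24 alternatives. The myelin median ran from -0.529 to -0.214. Of 780 list medians 1 moved beyond its spread, that of opioid genes to 0.0861 with the mean of a gene's probes. Background and offset limit what dim probes can show.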

Other observations

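One probe without a symbol in the annotation, ILMN_1230397, had the third-smallest p of the 2-week comparison and was picked after its values were seen. Its log2 signal ran from 7.08 through 7.62 to 7.73 in cuff and from 5.90 through 6.52 to 7.15 in sham, with 5 cuff arrays above all sham arrays. The difference was 0.97 ± 0.18 (SE) with a limma adjusted p of 0.072, which over 25 alternatives ran from 0.0156 to 0.702. At 8 weeks cuff minus sham was 0.93.

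Probes named for their 2-week difference are no independent evidence on a change between times, and their values are given side by side as a description. Cuff minus sham was -0.55 at 2 weeks and 0.26 at 8 weeks by the dim probe of Ypel5, -0.47 and 0.29 for Folh1, and 0.71 and -0.20 by the dimmest probe of Grasp.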
